A study of Mus musculus with 17 samples.

Results

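Collagen genes were examined in RNA sequencing of 2 cell types sorted from mouse bone, osteoprogenitor cells (OPC) and skeletal stromal/stem cells (SSC), in 3 Cxcr4 genotypes. The members are all protein-coding genes whose symbol reads Col, a type number, the letter a and a chain number. The rule took 44 of the 55335 genes counted and used no measured value. Grouped by the usual classes, 11 are fibrillar, 9 form networks, 6 form beaded filaments, 9 are FACITs (collagens that sit on the surface of fibrils), 4 span the cell membrane, and 5 are anchoring, multiplexin or other collagens. Each of the 44 had counts in some library.

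Collagens are proteins of the extracellular matrix in which chains wind into a triple helix, and the chain genes are named by type and chain. Type I collagen, a helix of Col1a1 and Col1a2 chains, is the main protein of bone, where osteoblasts secrete it as osteoid before mineral is laid down. Types II, IX, X and XI belong to cartilage, types III, V, VI and XIV to soft connective tissue, and type IV to basement membranes.

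The series holds 17 libraries of bulk RNA, each from sorted cells pooled from 3 mice, females of 8 to 12 weeks compared with littermates. WT mice carry no Cxcr4 mutation, +/1013 mice carry 1 copy and 1013/1013 mice 2 copies of the Cxcr4 1013 knock-in allele, whose product, a chemokine receptor with a truncated cytoplasmic tail, resists desensitization. The allele is present in every cell of the animal, so an effect on collagen genes in a sorted cell type cannot be told apart from an effect that reaches it through other cells. Both cell types came from the collagenase-digested bone fraction and lacked the blood and endothelial markers CD45, TER119 and CD31; SSCs were then gated as Sca-1+ and PDGFRα+ and OPCs as Sca-1- with or without PDGFRα, each among CD51+ cells. There were 3 libraries a group, apart from 2 for 1013/1013 SSCs. Since the libraries are pools of mice, the p-values measure the spread between pools.

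OPC libraries held 64099849 to 92683497 counts on genes and SSC libraries 44217695 to 50509592. Levels are given as CPM, counts per 1000000 of the library size after TMM scaling over all 17 libraries. As a mean over all libraries, this scaling moved SSC against OPC differences by -0.54 on the log2 scale. The TMM factors were 0.734 to 0.863 in WT OPCs and 1.3 to 1.42 in WT SSCs. In mutant OPCs and SSCs they were 0.762 to 1.02 and 1.06 to 1.23, so the shift was larger in WT. The gates were visible in the RNA: Ly6a, which encodes Sca-1, was at 0.569 to 12.4 CPM in OPCs and 386 to 1450 in SSCs, and Pdgfra at 54.8 to 149 and 340 to 522. Osteoblast markers (10 genes, Bglap and Ibsp among them) summed to 7990 to 30610 CPM in OPCs and 2180 to 6060 in SSCs. The 3 WT SSC libraries stood apart from the mutant SSC libraries, with 21449 to 22599 genes detected against 15748 to 19227 and 3.68% to 4.16% of reads outside genes against 1.5% to 2.69%. WT SSC replicate 3 also had the highest level of the leukocyte gene Ptprc among SSC libraries, 120 CPM, and of Cxcr4, 47.3 CPM. Cxcr4 was at 0.11 to 1.30 CPM in the other SSC libraries and 4.48 to 19.4 in OPCs, and since the allele is still transcribed this level does not check the genotype. Among OPCs, WT replicate 3 and 1013/1013 replicate 2 stood apart in leukocyte and erythroid markers, which summed to 9466 and 10920 CPM against at most 762 in the other OPC libraries. The labels name no batch, so how far the differences among SSC libraries enter the genotype comparisons cannot be told apart from genotype.

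Promoters of 35 of the 44 genes were found in the RefSeq table (GRCm38.p6), and 9 had no entry: Col12a1, Col14a1, Col1a1, Col22a1, Col26a1, Col2a1, Col4a3, Col5a2 and Col9a3. The 150 bases before the RefSeq start are printed for 5 genes that carry the contrasts described further on: Col1a2, the type I chain of OPCs; Col11a2 and Col10a1, of cartilage; Col3a1, the leading collagen of SSCs; and Col16a1, a FACIT that was low in mutant SSCs. Capitals mark the motifs that were searched for, which are the TATA box TATAAA, the CCAAT box, and the GC box GGGCGG, which reads CCGCCC where it lies on the minus strand.
Col1a2, chr6:4505468-4505617, plus strand: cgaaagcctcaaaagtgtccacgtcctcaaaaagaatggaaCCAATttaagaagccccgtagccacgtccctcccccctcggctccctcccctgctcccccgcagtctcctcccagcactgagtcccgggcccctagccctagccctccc
Col11a2, chr17:34038988-34039137, plus strand: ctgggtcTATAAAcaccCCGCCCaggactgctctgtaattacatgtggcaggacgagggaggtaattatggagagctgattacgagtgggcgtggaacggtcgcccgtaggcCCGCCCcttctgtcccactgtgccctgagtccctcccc
Col10a1, chr10:34389831-34389980, plus strand: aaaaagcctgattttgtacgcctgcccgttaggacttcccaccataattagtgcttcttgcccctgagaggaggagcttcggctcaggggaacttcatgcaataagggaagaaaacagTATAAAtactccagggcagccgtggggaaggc
Col3a1, chr1:45311388-45311537, plus strand: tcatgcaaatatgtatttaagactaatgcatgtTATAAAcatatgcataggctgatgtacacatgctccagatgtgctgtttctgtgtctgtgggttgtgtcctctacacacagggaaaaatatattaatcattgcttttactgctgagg
Col16a1, chr4:130047690-130047839, plus strand: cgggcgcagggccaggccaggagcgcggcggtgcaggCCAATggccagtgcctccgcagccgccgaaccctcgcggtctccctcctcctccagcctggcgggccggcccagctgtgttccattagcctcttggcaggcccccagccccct

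Both strands of the 250 bases before the start were searched. TATAAA was found in 5 of the 35 collagen genes (14.3%) and in 12.4% of all 32851 promoters of the table, CCAAT in 13 (37.1%, against 33.8%) and GGGCGG in 21 (60%, against 32.7%). A collagen gene counted if any of its promoters held the motif, while the table was counted by promoter, so the units are unlike. The 5 with TATAAA were Col10a1, Col11a2, Col13a1, Col17a1 and Col3a1. In Col10a1 the motif began 32 bases before the start, in Col3a1 117 and in Col11a2 143. Such a match is a stretch of letters, and none of the libraries measured what binds there.

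Collagen genes took a far larger share of the transcriptome in OPCs, 39.3% ± 3.27 (SD, n = 3) in WT, than in SSCs, 6.08% ± 0.154 (n = 3) in WT. The share of gene counts on the 44 genes was 35.6%, 41.8% and 40.5% in the WT OPC libraries, 28.0%, 42.8% and 39.6% in +/1013 and 26.1%, 37.7% and 34.4% in 1013/1013. In SSCs it was 6.12%, 6.21% and 5.91% in WT, 1.95%, 1.93% and 3.79% in +/1013 and 2.81% and 2.79% in 1013/1013. Every OPC library therefore lay above every SSC library, and every mutant SSC library below every WT SSC library, while the OPC genotypes overlapped.

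Without the type I chains the picture differed. The other 42 genes took 3.68% ± 1.44 (SD, n = 3) of the counts in WT OPCs and 3.63% ± 0.180 (n = 3) in WT SSCs, so that at this level WT cells of both types were within the spread of the OPC libraries. In +/1013 and 1013/1013 OPCs the share was 4.24% ± 1.93 and 7.22% ± 3.13 (n = 3 each), and in +/1013 and 1013/1013 SSCs 1.78% ± 0.728 (n = 3) and 1.87% ± 0.108 (n = 2). These shares carry no test.

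The make-up of the collagen transcripts also differed, on a scale per length (FPKM, CPM divided by the kilobases of annotated exons). The length takes in every annotated exon of a gene, 12426 bases for Col1a2, 6563 for Col1a1 and 4380 for Col6a1. Orders of genes and shares of FPKM depend on it. In WT OPCs the order was Col1a1 with 38070 ± 7576, Col1a2 with 16150 ± 2465, Col2a1, the chain of cartilage type II collagen, with 2743 ± 1399, and Col9a3 with 463 ± 251 FPKM, and the same 4 genes led in both mutant genotypes. In WT SSCs Col3a1, the only chain of type III collagen, led with 1603 ± 189, followed by Col1a1 with 1366 ± 230, Col1a2 with 729 ± 59.4 and Col6a1 with 514 ± 43.9 FPKM. The intervals of 1 SD of Col3a1 and Col1a1 overlap in WT SSCs, so their order is not resolved.

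In mutant SSCs Col1a1 left the top of this order. It stood at 261 ± 165 FPKM in +/1013 SSCs, behind Col3a1 (902 ± 436), Col6a1 (464 ± 99.0) and Col1a2 (410 ± 143). Col6a1 stood before Col1a2 there through the length alone, since in CPM Col1a2 (3782 to 7105) lay above Col6a1 (1688 to 2518). In 1013/1013 SSCs the values were 987 ± 10.6 for Col3a1, 491 ± 82.4 for Col1a2, 425 ± 98.3 for Col6a1 and 320 ± 99.0 for Col1a1 (n = 2). Of the summed collagen FPKM, Col1a1 made up 63.1%, 61.8% and 52.5% in WT, +/1013 and 1013/1013 OPCs, and 25.7%, 9.42% and 11.2% in the SSCs of the same genotypes.

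**Figure D1:**
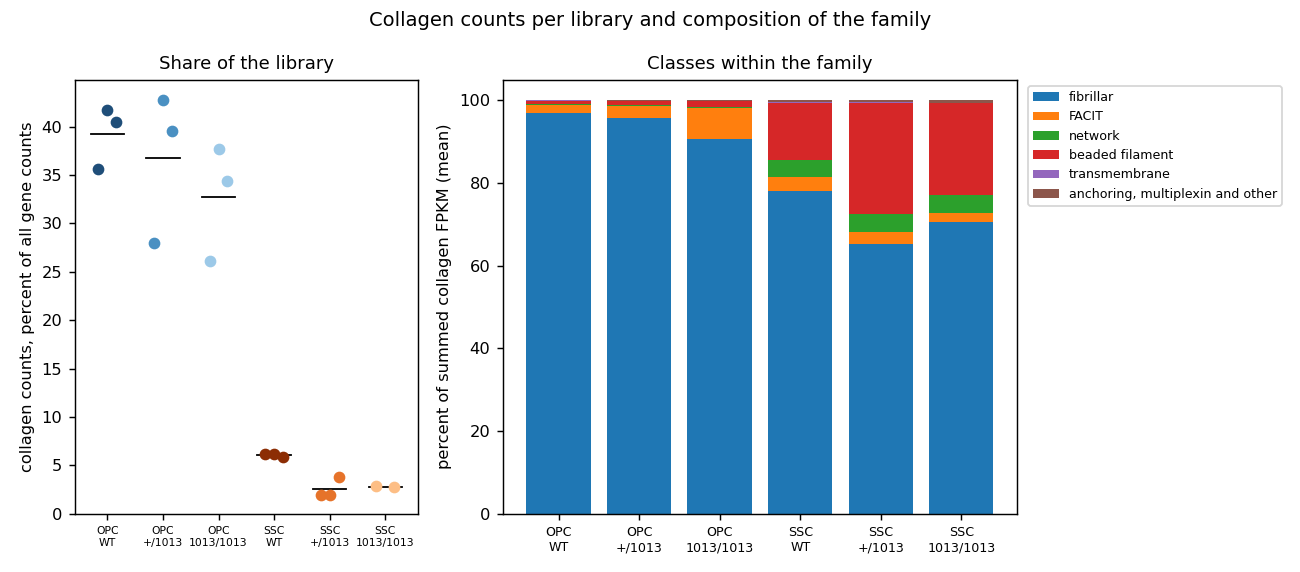
Left, percent of the gene counts of each library that fall on the 44 collagen genes, points being libraries and lines group means; right, mean percent of summed collagen FPKM by class in each group. OPC libraries sit between 26.1% and 42.8% and SSC libraries between 1.93% and 6.21%, and beaded filament genes make up 14.0% to 26.8% of collagen FPKM in SSC groups but 0.787% to 1.49% in OPC groups.

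Most of the family was expressed at some level. Taking for each gene its highest group mean, 25 of 44 reached 100 CPM, 34 reached 10 CPM and 42 reached 1 CPM. Within OPCs 23 reached 100 CPM and 6 stayed under 1 CPM, and within SSCs 21 and 5. The heatmap of all members shows the fibrillar genes as the brightest block of both cell types, the cartilage genes brighter in OPCs than in SSCs, and Col14a1, Col6a5 and Col6a6 in SSCs.

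**Figure D2:**
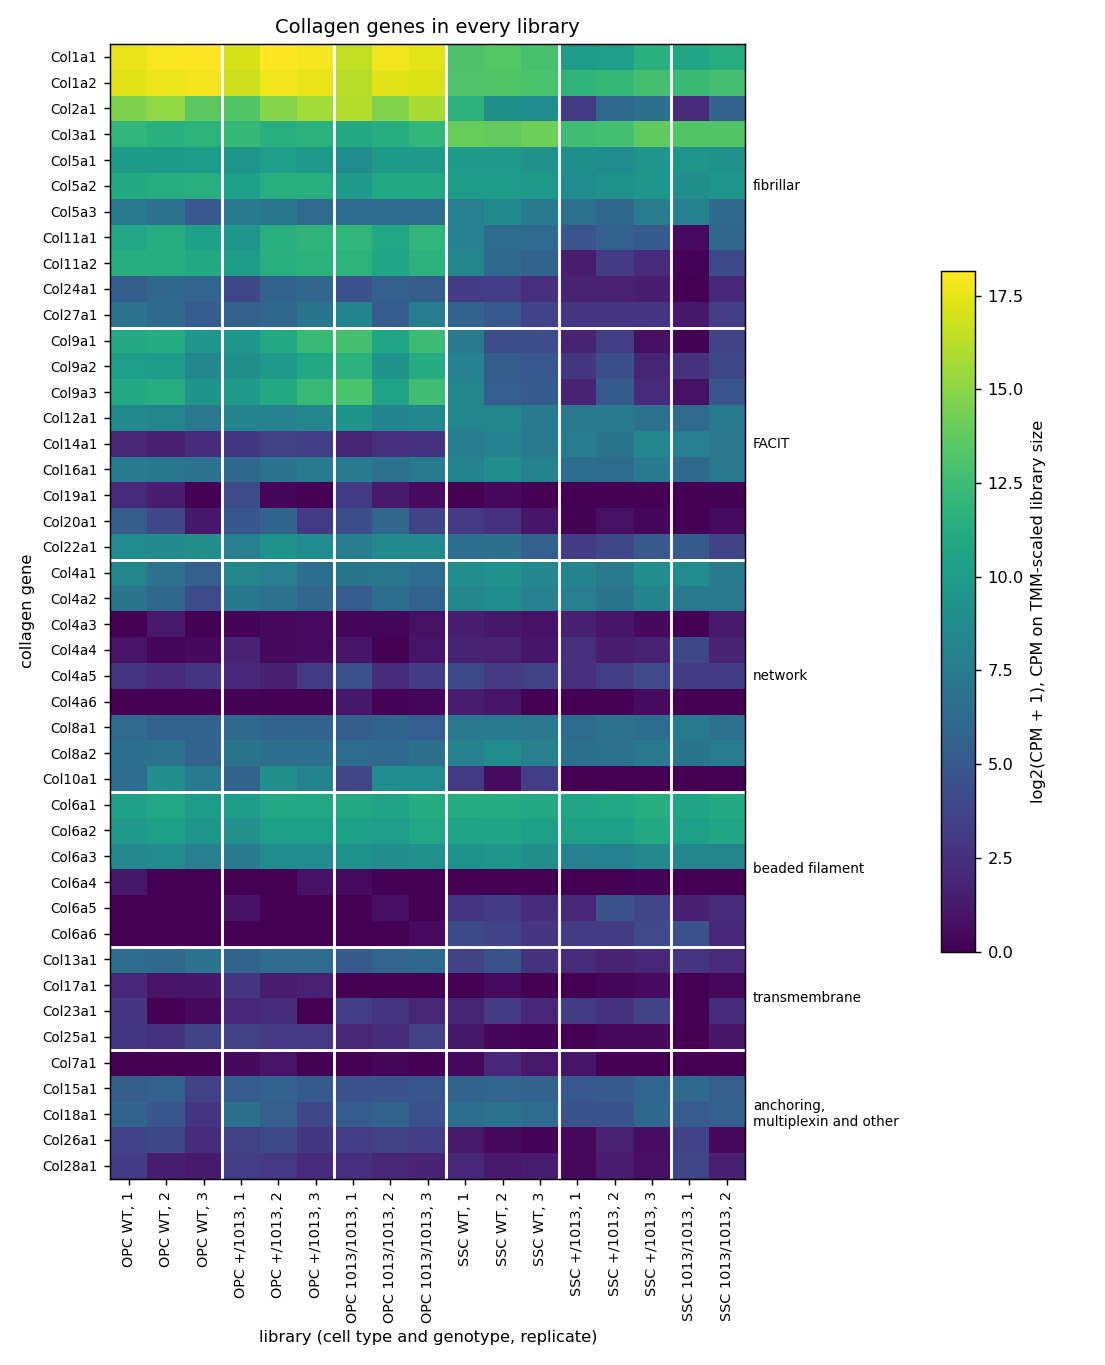
Levels of the 44 collagen genes (rows, by class) in the 17 libraries (columns, by group), as log2(CPM + 1). Col1a1 and Col1a2 are the brightest rows of OPC libraries, and Col3a1 is brighter in SSC than in OPC libraries.

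SSCs and OPCs of the same genotype differed in the collagens they expressed. In WT, 7 collagen genes were higher and 10 lower in SSCs by the quasi-likelihood test of edgeR, with p adjusted after Benjamini and Hochberg over all genes ("called" means an adjusted p under 0.05 and a change of 1.5-fold or more). Among all 20238 genes tested, 11.4% were called, 5.55% higher and 5.86% lower, against 17 of 44 collagen genes. In +/1013, 3 were higher and 16 lower (background 12.5%, of which 6.44% higher and 6.02% lower), and in 1013/1013, 4 were higher and 16 lower (13.1%, 6.94% and 6.12%). DESeq2 called 25, 23 and 24 collagen genes (background 18.9%, 21.2% and 23.6%).

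In all 3 genotypes the same 3 genes, Col3a1, Col14a1 and Col6a6, were higher in SSCs, and the same 9 were lower: Col1a1, Col1a2, Col2a1, Col5a2, Col11a1, Col11a2, Col10a1, Col13a1 and Col22a1. The median log2 difference of collagen genes was -0.23 in WT, -0.84 in +/1013 and -1.05 in 1013/1013, where that of all genes was 0.17, 0 and -0.20. In 1013/1013 the collagen median becomes -0.71 when 4 genes with a group at 0 are set to the limit that 3 counts give. The fibrillar class had medians of -2.91, -4.38 and -4.52, the FACITs -2.46, -6.43 and -6.78, and the networks 1.51, 1.04 and 0.99. Bulk RNA cannot tell fewer cells that express a gene from less RNA of it per cell, and this holds for every value here.

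**Figure D3:**
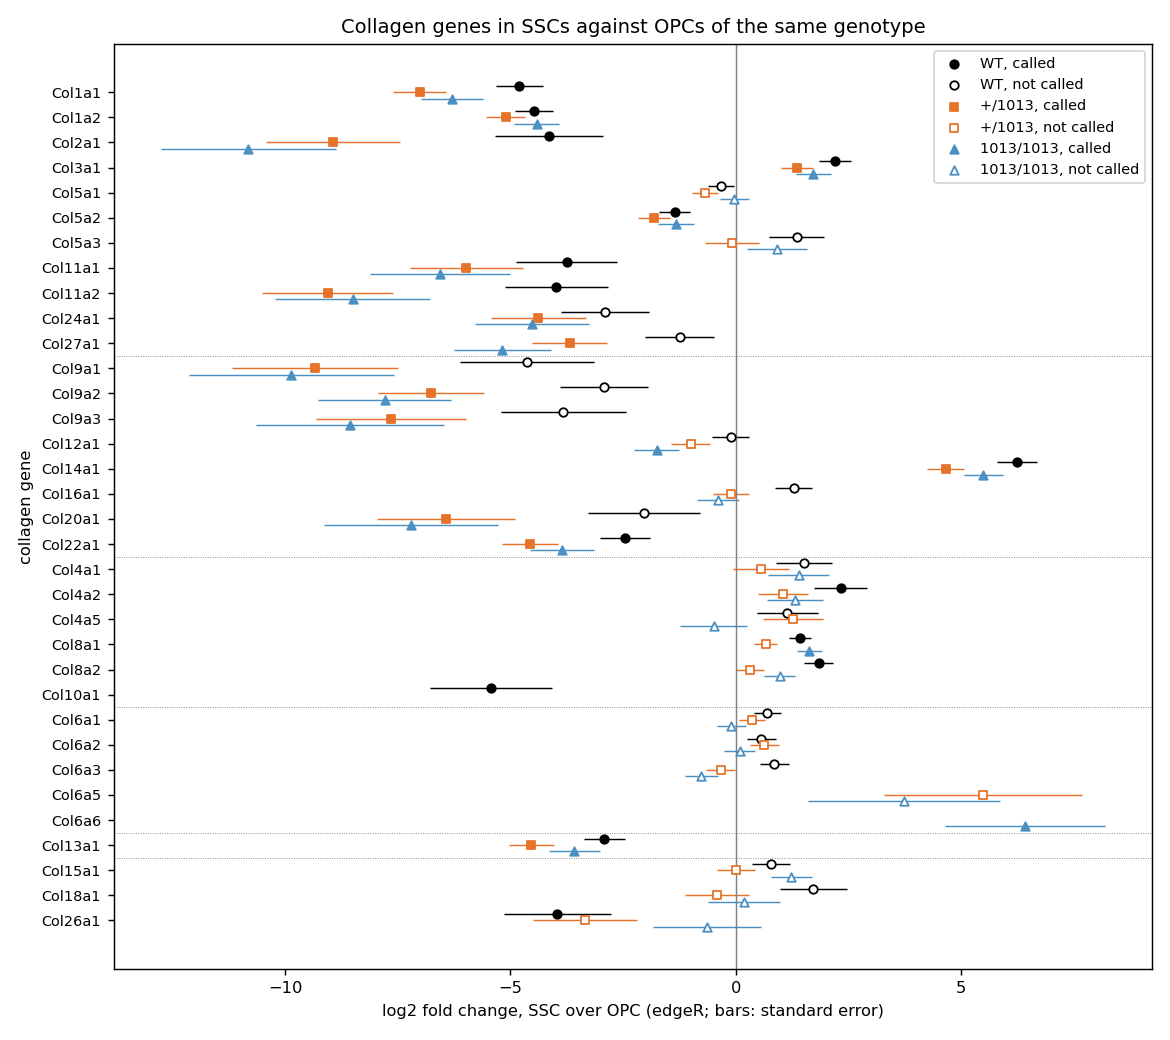
Log2 difference of SSCs against OPCs (edgeR, ± SE) in the 3 genotypes for collagen genes whose mean reached 10 CPM in some group, by class; filled points were called, open points were not, and comparisons with a group at 3 counts or fewer in every library are left out. Col14a1 and Col3a1 lie to the right and Col1a1 and Col1a2 to the left in every genotype.

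The type I chains showed the largest excess in OPCs by level. Col1a1 (ENSMUSG00000001506.10, mm10 chr11:94936224-94953042, plus strand) was at 195200, 261900 and 292400 CPM in WT OPCs and 8813, 10540 and 7535 in WT SSCs, a log2 difference of -4.80 (SE 0.53, edgeR adjusted p = 9.2e-05). Col1a2 (ENSMUSG00000029661.16, chr6:4504814-4541544, plus strand) was at 169900, 201000 and 231100 and at 9172, 9725 and 8264 CPM, a log2 difference of -4.47 (SE 0.42, adjusted p = 2.24e-05). In both genes the lowest OPC library was far above the highest SSC library. The difference of Col1a1 was -7.01 (SE 0.59) in +/1013 and -6.30 (SE 0.69) in 1013/1013, and that of Col1a2 -5.11 (SE 0.44) and -4.42 (SE 0.50), all called. Osteoblast markers, as summed above, were lower in the same SSC libraries (10, 10 and 8 of 10 called), and their part in these differences was not tested.

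Col3a1 went the other way. This fibrillar collagen of skin, vessel walls and loose connective tissue (chr1:45311538-45349706, plus strand) was at 3968, 2958 and 3362 CPM in WT OPCs and 15390, 14070 and 17740 in WT SSCs. The log2 difference was 2.20 (SE 0.35, edgeR adjusted p = 0.00151) in WT, 1.36 (SE 0.35, adjusted p = 0.02) in +/1013 and 1.72 (SE 0.38, adjusted p = 0.00923) in 1013/1013, and no SSC library overlapped the OPC libraries of its genotype. Of its exonic length 1.44% is shared with Gm47302, where the counting may have dropped reads.

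Type V collagen copolymerizes with type I and limits fibril diameter, and its chains differed from each other. Col5a2 was at 2212, 2518 and 2805 CPM in WT OPCs and 975, 1053 and 909 in WT SSCs, and its log2 difference was -1.36 (SE 0.35), -1.82 (SE 0.35) and -1.33 (SE 0.40) in the 3 genotypes, each called. Col5a1 was at 956, 964 and 1046 CPM and 843, 875 and 643 in the same libraries and was called in no genotype. Col5a3 was at 191, 110.5 and 28.8 CPM in WT OPCs and 232, 421 and 192 in WT SSCs, and was not called (log2 difference 1.35, SE 0.61, adjusted p = 0.172).

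The cartilage collagens were OPC transcripts, with a wide spread. Col2a1, the main fibril of cartilage, was at 25210, 38360 and 12490 CPM in WT OPCs, 9566, 29470 and 51280 in +/1013 OPCs and 70040, 26610 and 59060 in 1013/1013 OPCs. In SSCs it was at 3315, 535 and 444 CPM in WT, 7.66, 72.9 and 104 in +/1013 and 3.52 and 54.3 in 1013/1013. OPC and SSC libraries did not overlap, but within a group the highest library exceeded the lowest by over 3 times in all groups but 1013/1013 OPCs. The log2 difference was -4.15 (SE 1.20, adjusted p = 0.0392), -8.94 (SE 1.48, adjusted p = 0.00141) and -10.81 (SE 1.94, adjusted p = 0.00267).

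The chains that join Col2a1 in the cartilage fibril were also lower in SSCs in each genotype. Col11a1 was at 1374 to 2543 CPM in WT OPCs and 79.2 to 270 in WT SSCs, with log2 differences of -3.75, -5.98 and -6.57 in the 3 genotypes. Col11a2 was at 2091 to 2566 and 54.4 to 323 CPM, with -3.98, -9.05 and -8.50. Both were called in each genotype. The Col9 genes, whose product decorates that fibril, were called lower in the mutant genotypes alone: Col9a1 differed by -9.33 in +/1013 and -9.86 in 1013/1013, Col9a2 by -6.76 and -7.79, and Col9a3 by -7.65 and -8.56. In WT the values were -4.63 (SE 1.49, adjusted p = 0.0611), -2.92 (SE 0.98, adjusted p = 0.0714) and -3.83 (SE 1.39, adjusted p = 0.0948). The call in mutants and not in WT is no test of a difference between genotypes, which is given further on.

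Col10a1, which marks hypertrophic chondrocytes, was at 87.4, 467 and 188 CPM in WT OPCs and 7.59, 0.419 and 9.06 in WT SSCs (log2 difference -5.44, SE 1.35, adjusted p = 0.019). In mutant OPCs it was at 12.8 to 505 CPM, and in the 5 mutant SSC libraries it had at most 2 counts, no more than the 3 counts taken here as the limit of detection. The chondrocyte markers summed to 10280 to 41740 CPM in OPCs and 4482 to 32880 in SSCs, most of it in SSCs from Comp and Chad. Acan, which encodes the cartilage proteoglycan aggrecan, was at 407 to 3582 CPM in OPCs and 3.89 to 242 in SSCs, and Matn1 was at 0 in all mutant SSC libraries. The part of a chondrocyte fraction in the values of Col2a1, Col9a1, Col10a1 and Col11a2 was not tested.

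Among the other fibrillar genes, Col24a1, which is known from bone, was at 39.0, 69.1 and 60.0 CPM in WT OPCs and 8.30, 9.54 and 4.57 in WT SSCs and was called lower in both mutant genotypes (log2 difference -4.38, SE 1.05, and -4.52, SE 1.27). Col27a1, known from cartilage, was called lower in the same comparisons (-3.69, SE 0.84, and -5.18, SE 1.08), with 38.7 to 295 CPM in 1013/1013 OPCs and 1.30 to 8.70 in 1013/1013 SSCs.

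Of the FACITs, Col14a1 gave the clearest contrast of the family. Col14a1 (chr15:55307750-55520803, plus strand) encodes a collagen of tendon, dermis and perichondrial tissue that binds the surface of type I fibrils. It was at 2.85, 2.00 and 3.83 CPM in WT OPCs, 6.72, 9.93 and 9.52 in +/1013 OPCs and 2.69, 4.50 and 5.22 in 1013/1013 OPCs. In SSCs it was at 208, 268 and 182 CPM in WT, 207, 129 and 320 in +/1013 and 229 and 143 in 1013/1013. The lowest SSC library, at 129, was far above the highest OPC library, at 9.93, and the log2 difference was 6.24 (SE 0.44, adjusted p = 1.71e-06), 4.65 (SE 0.41, adjusted p = 6.86e-06) and 5.49 (SE 0.44, adjusted p = 3.29e-06).

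Col22a1, a FACIT of tissue junctions, was at 445, 396 and 495 CPM in WT OPCs and 92.3, 102 and 47.5 in WT SSCs, with log2 differences of -2.46 (SE 0.56), -4.56 (SE 0.62) and -3.85 (SE 0.71), each called. Col12a1, which like Col14a1 binds type I fibrils, was called lower in 1013/1013 SSCs (-1.76, SE 0.50, adjusted p = 0.0345), where it was at 79.9 and 178 CPM against 677, 286 and 349 in OPCs. Col16a1 was at 110 to 171 CPM in WT OPCs and 273 to 482 in WT SSCs and was not called (1.28, SE 0.41, adjusted p = 0.0595). Col20a1 was called lower in both mutant genotypes, at 0.728 CPM or less in mutant SSCs, and Col19a1 was at 0 to 17.6 CPM in OPCs and at most 0.375 in SSCs.

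Of the 9 network genes, 3 were called higher in SSCs in WT, 0 in +/1013 and 1 in 1013/1013, and Col10a1 was called lower in each. Col8a1 and Col8a2, whose chains form hexagonal lattices under endothelia and in other tissues, were called higher in WT SSCs. Col8a1 was at 81.0, 49.2 and 50.2 CPM in WT OPCs and 151, 177 and 154 in WT SSCs, and Col8a2 at 98.9, 108 and 54.4 and at 257, 433 and 244. Their log2 differences were 1.42 (SE 0.25) and 1.84 (SE 0.32), both with an adjusted p of 0.00266. In 1013/1013 Col8a1 was called too (1.63, SE 0.27), and Col8a2 was not (0.97, SE 0.35, adjusted p = 0.0839).

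Type IV collagen is the sheet of basement membranes. Its chain genes Col4a1 and Col4a2 start head to head on opposite strands of chromosome 8, so close that their first exons share 22 bases. Col4a1 was at 327, 116 and 46.5 CPM in WT OPCs and 473, 590 and 337 in WT SSCs, and was not called (1.51, SE 0.63, adjusted p = 0.143). Col4a2 was at 124, 66.0 and 18.0 and at 331, 447 and 260 CPM and was called in WT (2.32, SE 0.58, adjusted p = 0.019). Endothelial markers (8 genes), a further source of these chains, summed to at most 57.9 CPM in OPCs and 156 in SSCs, and mural markers to 198 to 895 and 151 to 585, and their part was not tested. Col4a5 was at 2.08 to 22.8 CPM over all libraries, Col4a4 at 0 to 14.4, Col4a3 at 0 to 2.04 and Col4a6 at 0 to 1.58.

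Type VI collagen, the beaded filament around many connective tissue cells, was abundant in both cell types. Col6a1 was at 1363, 1805 and 1001 CPM in WT OPCs and 2411, 2306 and 2038 in WT SSCs, without a call (0.70, SE 0.29, adjusted p = 0.144). Col6a2 was at 783 to 1256 and 1255 to 1564 CPM and Col6a3 at 244 to 436 and 508 to 774 in the same groups. The minor chain genes marked SSCs: Col6a6 was at 0 in all WT OPCs and 16.2, 11.5 and 6.15 CPM in WT SSCs, at least 222-fold higher, and Col6a5 at 0 and at 5.91, 8.24 and 4.11 CPM, at least 120-fold higher. Both bounds use 3 counts per library as the limit of detection. Col6a4 stayed at or under 1.25 CPM everywhere.

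Of the transmembrane collagens, Col13a1 was the abundant member and an OPC transcript. Col13a1 (chr10:61838236-61979108, minus strand), whose product sits at cell adhesions and neuromuscular junctions, was at 83.9, 75.2 and 120 CPM in WT OPCs and 10.2, 21.4 and 5.17 in WT SSCs. The log2 difference was -2.92 (SE 0.46, adjusted p = 0.00132), -4.54 (SE 0.50, adjusted p = 5.43e-05) and -3.58 (SE 0.56, adjusted p = 0.00112). Col25a1 was at 2.77 to 10.3 CPM in OPCs and at most 1.25 in SSCs, and Col23a1 at 0 to 10.4 CPM over all libraries.

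Of the remaining collagens, the multiplexin Col18a1, a basement membrane proteoglycan and the source of endostatin, was at 6.09 to 104 CPM in OPCs and 25.5 to 117 in SSCs, and its relative Col15a1 at 10.9 to 51.3 and 30.7 to 71.2, and neither was called in a genotype. Col26a1 was called lower in WT SSCs (-3.96, SE 1.19, adjusted p = 0.0469) and Col28a1 in +/1013 SSCs (-2.80, SE 0.86, adjusted p = 0.0473), both from levels of at most 15.5 CPM.

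Of the 25 genes called in at least 1 genotype, Col13a1 and Col14a1 kept their call in all 3 genotypes under every alternative that could be run. In WT, 8 genes did (Col1a1, Col1a2, Col3a1, Col6a6, Col8a1, Col8a2, Col13a1 and Col14a1), in +/1013, 14 did, and in 1013/1013 only Col13a1 and Col14a1 did. A fit of only the groups compared called 3 collagen genes in 1013/1013, instead of 20. Without OPC WT replicate 2, SSC WT replicate 2 or SSC WT replicate 3 the count of calls in WT was 9 instead of 17, and without OPC WT replicate 3 it was 11. In 1013/1013 the count fell without SSC 1013/1013 replicate 1, where the spread of the library left is assumed.

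Genes that make and process collagen were called lower in SSCs more often than higher. Of 36 genes for chain hydroxylation, folding, trimming and cross-linking, 16 were called lower and 1 higher in WT SSCs, 18 lower and 0 higher in +/1013, and 19 lower and 0 higher in 1013/1013, where 11.4%, 12.5% and 13.1% of all genes were called. In WT the smallest p-values belonged to Sparc, a collagen-binding matrix protein (-3.38, SE 0.36), Fkbp10 (-2.05, SE 0.27) and Serpinh1 (-2.60, SE 0.35), chaperones of procollagen, and P3h1, a prolyl 3-hydroxylase (-2.28, SE 0.32). The gene that was higher was P4ha3, a prolyl 4-hydroxylase subunit (2.11, SE 0.54). Of 7 collagen receptor genes, Ddr2, a kinase that binds fibrillar collagen, was called higher in SSCs in each genotype (1.10, 1.61 and 1.61), the integrin chain Itga11 in WT and 1013/1013 (1.16 and 1.22), and Ddr1 lower in both mutants (-2.31 and -2.42).

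Between genotypes, no collagen gene passed the adjusted threshold of edgeR in OPCs. It called 0 of 41 tested in each comparison (+/1013 and 1013/1013 against WT and between the mutants), and 2 of the 41 had an unadjusted p under 0.05 in each of the 3 comparisons. Over all genes 0%, 0.00617% and 0% were called, and 2.04%, 3.38% and 3.17% had an unadjusted p under 0.05. DESeq2 called 0, 1 and 1 collagen genes (background 0.358%, 0.259% and 0.364%). Every library lay below every WT library in 0 of 41 genes in +/1013 (2.46% of all genes) and in 5 in 1013/1013 (3.63%), namely Col1a2, Col5a1, Col5a2, Col13a1 and Col17a1, and above in 2 (2.82%), Col7a1 and Col14a1, and 1 (3.98%), Col6a3.

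The 1 gene called by DESeq2 was Col17a1, a collagen of hemidesmosomes. It was at 3.15, 0.959 and 1.19 CPM in WT, 6.18, 1.67 and 2.11 in +/1013 and 0 in all 1013/1013 OPCs, at least 36.9-fold lower than WT and 69.2-fold lower than +/1013, from a low level.

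The type I chains overlapped between OPC genotypes, except Col1a2 in 1013/1013, whose highest library lay just under the lowest WT library. Col1a1 was at 139100, 280600 and 241000 CPM in +/1013 OPCs (log2 difference from WT -0.19, SE 0.50) and 94180, 225200 and 175400 in 1013/1013 OPCs (-0.61, SE 0.50). Col1a2 was at 112800, 218900 and 196400 (-0.20, SE 0.48) and 74620, 168800 and 149300 CPM (-0.62, SE 0.48). In both genes the lowest OPC library of every genotype was its replicate 1, also in WT (195200 CPM for Col1a1 and 169900 for Col1a2). Without +/1013 replicate 1, and with WT replicate 1 kept, the differences of both genes in +/1013 turned to 0.06 and 0.05. Osteoblast markers summed to 19490 to 30610 CPM in WT OPCs and 7990 to 23460 in 1013/1013 OPCs and chondrocyte markers to 10280 to 21780 and 12360 to 41740, and their part was not tested.

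The cartilage chains reached higher levels in some mutant OPC libraries, but the genotypes overlapped. Col9a1 was at 1993, 2438 and 710 CPM in WT, 787, 2091 and 4780 in +/1013 and 7302, 1603 and 5591 in 1013/1013 OPCs, and the FACITs together took 0.427% ± 0.210, 0.577% ± 0.351 and 1.18% ± 0.746 of the counts (n = 3 each). WT replicate 3 and 1013/1013 replicate 2, the OPC libraries high in leukocyte markers, were the lowest of their groups in Col2a1 and Col9a1, and the part of these markers was not tested. Without either library edgeR called 0 collagen genes between OPC genotypes.

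In single genes, Col14a1 in +/1013 OPCs (6.72 to 9.93 CPM against 2.00 to 3.83 in WT) had a log2 difference of 1.58 (SE 0.43, unadjusted p = 0.00534, edgeR adjusted p = 1), with no overlap of the libraries. Col13a1 in 1013/1013 OPCs was at 33.3, 59.0 and 70.0 CPM against 75.2 to 120 in WT, a log2 difference of -0.78 (SE 0.32, unadjusted p = 0.0405, adjusted p = 1).

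In SSCs, most collagen genes had lower values in both mutant genotypes than in WT, but no single gene passed edgeR's adjusted threshold. Of 42 genes tested, 36 had a log2 difference below 0 in +/1013 and 34 in 1013/1013, among them all 11 fibrillar genes and all 8 FACITs tested in each comparison. The median was -1.16 in +/1013 and -0.99 in 1013/1013, and that of all 17659 genes -0.11 and -0.23. By class the medians were -1.84 and -2.09 for fibrillar genes, -2.72 and -2.46 for FACITs, -0.74 and -0.77 for networks, -0.04 and -0.27 for beaded filaments, -0.28 and -0.46 for transmembrane collagens and -1.18 and 0.05 for the anchoring, multiplexin and other collagens, of which 3 of 5 were above 0 in 1013/1013. Both comparisons share the 3 WT libraries, so neither supports the other.

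By edgeR, 0 collagen genes were called in either comparison (all genes 0.0736% and 0%), 18 of 42 were lower at an unadjusted p under 0.05 in +/1013 (background 9.68%), and in 1013/1013 15 were lower (9.89%) and 1 higher. DESeq2 called 14 lower in +/1013 (background 4.49%) and 10 lower in 1013/1013 (5.74%), and none higher. Every mutant library lay below every WT library in 21 of 42 genes in +/1013, where 16.2% of all genes did so, and in 24 of 42 in 1013/1013, where 24.4% did. In +/1013 these were 9 of 11 fibrillar genes and 6 of 8 FACITs, against 3 of 9 network, 1 of 5 beaded filament and 1 of 4 transmembrane genes. Leaving out any 1 WT or +/1013 library left the count at 0 in +/1013. Without SSC 1013/1013 replicate 2, edgeR called some collagen genes in 1013/1013. There the remaining library is assumed to vary like the other groups, so no count is given.

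Col1a1 had the smallest p-value of the fibrillar genes in both comparisons. It was at 8813, 10540 and 7535 CPM in WT SSCs, 1006, 1172 and 2954 in +/1013 and 1639 and 2558 in 1013/1013. The log2 difference was -2.41 (SE 0.46, unadjusted p = 0.000849, adjusted p = 0.11 by edgeR and 1.33e-06 by DESeq2) and -2.09 (SE 0.53, unadjusted p = 0.00445, adjusted p = 0.136 and 0.000437). Over the alternatives the adjusted p ranged from 1.33e-06 to 0.394 in +/1013 and from 0.000437 to 0.451 in 1013/1013, and the difference from -3.09 to -2.14 and from -2.47 to -1.83. With all 17 libraries in one fit, Col1a1 was the 1 collagen gene called in +/1013.

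Its partner Col1a2 moved less. It was at 9172, 9725 and 8264 CPM in WT SSCs, 3782, 4385 and 7105 in +/1013 (-0.85, SE 0.29, adjusted p = 0.212) and 5375 and 6822 in 1013/1013 (-0.56, SE 0.33, adjusted p = 0.379). Col3a1 was at 15390, 14070 and 17740 CPM in WT, 6089, 6681 and 13780 in +/1013 (-0.85, SE 0.36, adjusted p = 0.278) and 9610 and 9757 in 1013/1013. In all of these the mutant libraries lay below WT, and +/1013 replicate 3 was the closest to it. Osteoblast markers summed to 2180 to 3931 CPM in WT, 2245 to 6060 in +/1013 and 2309 to 5566 in 1013/1013 SSCs, mostly from Spp1 and Ibsp, while 8 of the 10 genes had a log2 difference below 0 in +/1013 and 7 of 10 in 1013/1013. Among them Runx2, the transcription factor of the osteoblast lineage, was at 11.72 to 30.02 CPM in WT and 5.003 to 11.67 in mutant SSCs, and the part of osteoblast cells in these values was not tested.

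**Figure D4:**
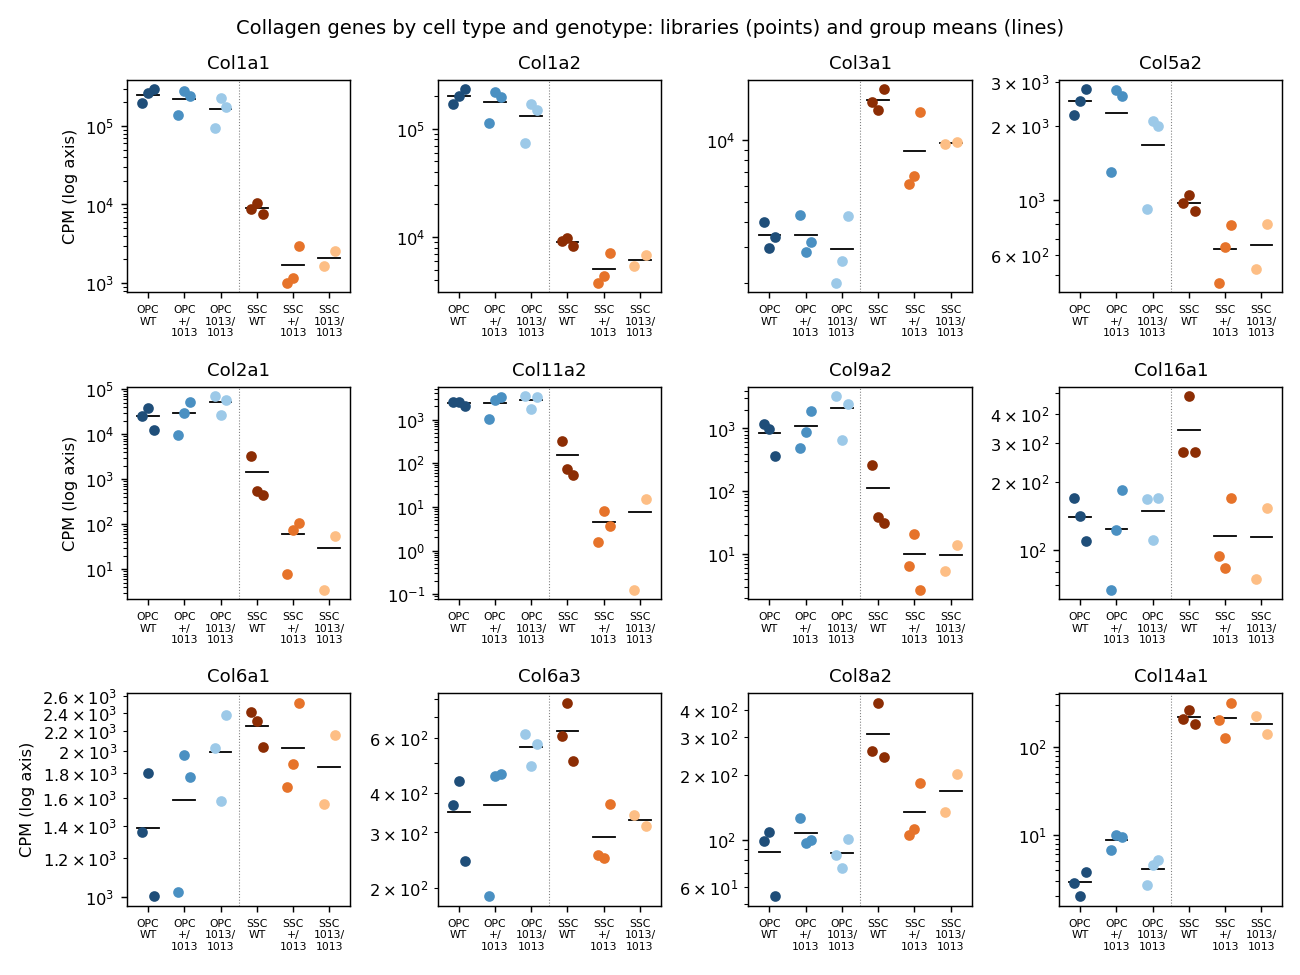
CPM (log axis) of 12 collagen genes in the 17 libraries, by cell type and genotype; points are libraries and lines group means. In SSCs every mutant point of Col1a1, Col6a3, Col16a1 and Col8a2 lies below the WT points, while OPC points of these genes overlap or differ by less.

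Col6a3, Col16a1 and Col8a2 had the next smallest p-values among the abundant genes in +/1013. Col6a3, the long chain of type VI collagen, was at 608, 774 and 508 CPM in WT SSCs, 254, 249 and 368 in +/1013 (-1.14, SE 0.24, unadjusted p = 0.0015, adjusted p = 0.117 by edgeR and 0.000194 by DESeq2) and 341 and 314 in 1013/1013 (-0.93, SE 0.27, adjusted p = 0.165 and 0.0111). Its partners did not share this: Col6a1 was at 2038 to 2411 CPM in WT and 1556 to 2518 in the mutants, and Col6a2 at 1255 to 1564 and 1214 to 2062, so both overlapped. Col16a1, whose promoter is printed above, was at 273, 482 and 273 CPM in WT, 94.5, 83.0 and 170 in +/1013 (-1.58, SE 0.40, adjusted p = 0.154) and 74.7 and 153 in 1013/1013 (-1.58, SE 0.46, adjusted p = 0.166). Col8a2 was at 257, 433 and 244 CPM in WT, 106, 112 and 184 in +/1013 (-1.24, SE 0.32, adjusted p = 0.158) and 134 and 203 in 1013/1013 (-0.88, SE 0.37, adjusted p = 0.266).

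The cartilage genes had the largest differences and the least stable ones. Col2a1 (values above) had a log2 difference of -4.55 (SE 1.42, adjusted p = 0.191) in +/1013 and -5.63 (SE 1.79, adjusted p = 0.185) in 1013/1013, and Col11a2 of -5.09 (SE 1.52) and -4.27 (SE 1.74). Col9a2 was at 264, 39.8 and 31.0 CPM in WT SSCs, 6.61, 20.9 and 2.74 in +/1013 and 5.35 and 13.8 in 1013/1013 (-3.48, SE 1.08, and -3.53, SE 1.28). WT SSC replicate 1 was the high library in each of these genes. Without it the differences were -3.02 and -4.10 for Col2a1, -3.88 and -3.07 for Col11a2 and -1.84 and -1.89 for Col9a2. The chondrocyte marker Acan had the same high library (242, 61.6 and 76.2 CPM in WT, 7.32 to 17.4 in +/1013 and 3.89 and 46.2 in 1013/1013), whose part was not tested. The chondrocyte markers together summed to 9112 to 17400 CPM in WT, 12670 to 23270 in +/1013 and 4482 to 32880 in 1013/1013 SSCs. Of these, Comp (0.68 and 0.75) and Chad (0.16 and 0.24) had log2 differences above 0 in +/1013 and 1013/1013, and the others below 0.

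Other genes lower at an unadjusted p under 0.05 in both comparisons included Col22a1 (92.3, 102 and 47.5 CPM in WT, 8.04, 13.5 and 32.1 in +/1013, 34.0 and 11.9 in 1013/1013), Col18a1 (93.9, 117 and 84.4 in WT, 25.7, 25.5 and 70.4 in +/1013, 38.5 and 47.2 in 1013/1013) and Col27a1 (52.1, 30.4 and 11.7 in WT, 5.90 to 6.43 in +/1013, 1.30 and 8.70 in 1013/1013). Col14a1, by contrast, was at 182 to 268 CPM in WT, 129 to 320 in +/1013 and 143 and 229 in 1013/1013 and overlapped throughout. Col5a1 overlapped as well, at 643 to 875 CPM in WT and 453 to 783 in the mutants.

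Summed markers of other cells overlapped between WT and mutant SSCs, except leukocyte and erythroid markers in +/1013. Leukocyte and erythroid markers summed to 358 to 2811 CPM in WT SSCs, 114 to 240 in +/1013 and 675 to 886 in 1013/1013, with 10 of 10 genes below WT in +/1013 and 9 of 10 in 1013/1013. Mural markers summed to 201 to 585, 151 to 251 and 203.5 to 266 CPM. Endothelial markers summed to 33.1 to 45.6 CPM in WT, 27.8 to 139 in +/1013 and 38.5 to 156 in 1013/1013 SSCs, with 6 of 8 genes above WT in +/1013 and 8 of 8 in 1013/1013. Among genes of the sorting gate, Ly6a was at 386 to 599 CPM in WT and 838 to 1450 in mutant SSCs. Itgav, which encodes CD51, went the other way, at 49.5 to 59.7 CPM in WT and 17.8 to 35.8 in mutants. Pdgfra overlapped, at 340 to 414 and 341 to 522 CPM. The part of these in the collagen differences was not tested.

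1013/1013 SSCs were not separated from +/1013 SSCs. edgeR called 0 collagen genes (all genes 0%), and 3 of 42 had an unadjusted p under 0.05 (5.53% of all genes), while DESeq2 called 0. The 3 were Col8a1 (0.64, SE 0.25), Col28a1 (3.04, SE 0.99) and Col6a5 (-2.14, SE 0.85). Col1a1 differed by 0.32 (SE 0.48), and the difference was -0.06 without SSC 1013/1013 replicate 2.

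Among the 36 synthesis genes, edgeR called 0 in either SSC comparison with WT, where it called 0.0736% and 0% of all genes. At an unadjusted p under 0.05, 4 synthesis genes were higher and 2 lower in each, while 9.68% and 9.89% of all genes were lower. The median differences of the synthesis genes were -0.10 and -0.03, and those of all genes are given above. The gene with the smallest p, Ppib, a prolyl isomerase of the procollagen chaperone complex, was higher, not lower, in mutant SSCs (1.10, SE 0.16, adjusted p = 0.0614 by edgeR and 9.82e-07 by DESeq2 in +/1013, and 1.09, SE 0.18, adjusted p = 0.0798 and 1.75e-05 in 1013/1013), and it was chosen after its values were seen.

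Whether genotype acted differently in the 2 cell types was tested as the difference of the mutant effects. edgeR called 0 of 44 collagen genes for +/1013 and 0 for 1013/1013 (all genes 0.084% and 0.153%), while 16 and 15 had an unadjusted p under 0.05 (all genes 10.6% and 15%), of which 16 and 14 were more negative in SSCs. The median was -1.46 and -1.44, and that of all genes -0.14 and -0.39. DESeq2 called 7 and 10, all more negative in SSCs (background 1.2% and 3.28%). Without SSC 1013/1013 replicate 2 some were called for 1013/1013 by edgeR, with an assumed spread of the library left. For Col1a1 the difference was -2.21 (SE 0.65, unadjusted p = 0.00446, adjusted p = 0.332) and -1.50 (SE 0.69, unadjusted p = 0.0491, adjusted p = 0.331), for Col8a2 in +/1013 -1.52 (SE 0.45, adjusted p = 0.332), and for Col2a1 -4.79 (SE 1.57) and -6.66 (SE 1.81). For Col1a2 it was -0.64 (SE 0.52) and 0.05 (SE 0.55).

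Ratios of counts between chains offer a measure that does not depend on library scaling. They are not corrected for gene length, so their absolute values do not give the stoichiometry of transcripts or protein chains. The Col1a1 to Col1a2 ratio of counts was 1.15, 1.30 and 1.27 in WT OPCs, 1.23, 1.28 and 1.23 in +/1013 and 1.26, 1.33 and 1.18 in 1013/1013 OPCs. In SSCs it was 0.961, 1.08 and 0.912 in WT, 0.266, 0.267 and 0.416 in +/1013 and 0.305 and 0.375 in 1013/1013. This RNA ratio was within a narrow band in OPCs of all genotypes, while every mutant SSC library lay under every WT SSC library.

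The log2 ratio in SSCs differed from WT by -1.67 in +/1013 (exact two-sided permutation test, p = 0.1, the smallest that 3 against 3 allows) and by -1.54 in 1013/1013 (exact permutation p = 0.2, the smallest for 2 against 3). Over all genotypes it was lower in SSCs than in OPCs by 1.35 on the log2 scale (difference -1.35, exact permutation p = 8.23e-05, the smallest that 8 against 9 libraries allow, 0.00167 after Benjamini-Hochberg adjustment over 61 tests of 8 ratios). That pooled difference rests mostly on the mutants, since in WT it was -0.33 (exact permutation p = 0.1).

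Of 48 genotype comparisons of the 8 ratios, 12 showed no overlap of the groups, 9 of them in SSCs against WT. No such share was computed for ratios of other genes. Of all single genes, 16.2% in +/1013 and 24.4% in 1013/1013 SSCs lay wholly below WT. By exact permutation such a separation has p = 0.1 for 3 against 3 libraries and p = 0.2 for 2 against 3. Some ratios share a chain and both SSC comparisons share the WT libraries, so the 9 are not independent. Col6a3 to Col6a1 was 0.279 ± 0.0490 in WT SSCs, 0.143 ± 0.00972 in +/1013 and 0.182 ± 0.0525 in 1013/1013 (n = 3, 3 and 2), a log2 difference of -0.95 and -0.63, and 0.226 to 0.285 as group means in OPCs. Col5a1 to Col5a2 was 0.396, 0.429 and 0.447 in OPC groups and 0.801, 0.920 and 1.15 in SSC groups, higher in SSCs by 1.11 on the log2 scale (exact permutation p = 8.23e-05, adjusted 0.00167). Col3a1 to Col1a1 was 0.0144 in WT OPCs, 1.81 in WT SSCs, 5.47 in +/1013 SSCs and 4.84 in 1013/1013 SSCs. Col11a1 to Col11a2 was 1.15 ± 0.310 in WT SSCs and 10.6 ± 5.26 in +/1013 SSCs (n = 3 each), where the smallest count was 94, without overlap and with a log2 difference of 3.12 (exact permutation p = 0.1, adjusted 0.407). It was 4.06 in 1013/1013 SSCs, which was not tested since a library had 7 counts, and in OPCs it was 0.808 in WT and 1.14 in 1013/1013 without overlap (log2 difference 0.52, exact permutation p = 0.1).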

How the data were processed

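RNA was sequenced from sorted OPC and SSC pools in 17 libraries, grouped by the cell type and genotype of their labels. The authors amplified the RNA with SMART-Seq v4, which does not mark strand, built Nextera XT libraries, checked reads with FastQC, removed short reads, aligned pairs with STAR to mm10 and counted them with HTSeq; versions, annotation and HTSeq settings are not given in the sources used here. The deposited values are whole-number counts per gene, not normalized. Of 55335 genes, 55154 were matched to GENCODE M21 by identifier without version (567, of them 2 collagen genes, had another version there) and 181 were not. HTSeq's special counters, at 1.15% to 4.16% of reads for no feature, stayed out of library sizes.

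Genotypes were compared within a cell type in one fit of edgeR 4.0.16 (glmQLFit with legacy = TRUE, TMM, filterByExpr, limma 3.58.1, R 4.3.3), and cell types and differences of effects over all 17 libraries. Calls needed an adjusted p (Benjamini-Hochberg) under 0.05 together with a change of 1.5-fold or more. The SE is the log2 difference over the square root of F. FPKM divides CPM by M21 exonic kilobases. Detection was set at 3 counts, or 0.0324 to 0.0678 CPM before TMM scaling, which covers counting error only. Ratios were compared on the log2 scale by exact permutation (scipy 1.17.1). Alternatives were DESeq2 1.42.0 (Wald test), edgeR with legacy = FALSE, DESeq2 size factors, upper-quartile normalization, type I collagen left out of library sizes, no filter, a minimum of 10 counts in each library, other samples in the fit, a replicate block, no fold threshold and each library left out. The fits were tested on simulated data.

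The members, classes, marker and synthesis lists were chosen with earlier results of these data known. Single values are given for collagen genes with a group mean of at least 10 CPM or a call, and log2 differences for called genes, for those with an unadjusted p under 0.05 and a mean of at least 1 CPM, and for Col1a1 and Col1a2. Other genes are given by range. Promoters came from a RefSeq table, whose starts can differ from those of M21.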

Additional observations from a re-analysis of the deposited data

Results flagged for a closer look

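Col6a3 differed between cell types in the direction of the 1013/1013 effect: every 1013/1013 OPC library (487 to 616 CPM) lay above every WT OPC library (244 to 436), and every 1013/1013 SSC library (314 and 341) below every WT SSC library (508 to 774). The difference of the effects, SSC minus OPC, was -1.62 on the log2 scale (SE 0.49, unadjusted p = 0.00513, edgeR adjusted p = 0.187, DESeq2 adjusted p = 0.025), and over all alternatives the adjusted p ranged from 0.025 to 0.608. It is not called by edgeR. Col6a3 was picked because its libraries separated in opposite directions, so the p-values of this difference are no independent test. In OPCs alone its edgeR difference did not reach an unadjusted p under 0.05, and the SSC side rests on 2 mutant libraries.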

How the results depend on the processing

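Over all alternatives, 2286 values of single log2 differences kept their direction and side of the threshold, 95 gained a call, 99 lost one and 7 changed sign, while 166 counts of called genes stayed within 1.5 times, 10 were larger and 6 smaller. DESeq2 called 1 collagen gene in 1013/1013 OPCs against WT and 1 against +/1013, 14 and 10 in +/1013 and 1013/1013 SSCs against WT, and 7 and 10 in the differences of effects, where edgeR called 0. With all 17 libraries in one fit, 1 was called in +/1013 SSCs, and with only the groups compared 3 in 1013/1013 SSCs against OPCs. The cause was not tested. Over protein-coding genes outside mitochondrial DNA the collagen share of 1013/1013 SSCs was 2.86%.

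Leaving out each library gave 0 to 9 calls in 1013/1013 SSCs against WT, 0 to 5 against +/1013, 0 to 6 in the 1013/1013 difference of effects, 9 to 15 for SSCs against OPCs in WT, 15 to 19 in +/1013 and 12 to 20 in 1013/1013. Single differences that changed sign were Col1a1 (-0.41 to 0.06) and Col1a2 (-0.39 to 0.05) in +/1013 OPCs, Col1a1 between the mutant SSCs (-0.06 to 0.96) and Col1a2 in the 1013/1013 difference of effects (-0.23 to 0.26). A group left with 1 library was assumed to vary like the others.

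Whether replicate numbers pair the samples was examined between genotypes of a cell type only. Same-numbered libraries correlated at -0.208 to 0.242 in OPCs (3 of 9 pairs over 0.1) and -0.0709 to 0.0958 in SSCs (0 of 7). Differently numbered libraries correlated at -0.278 to 0.327 (2 of 18) and -0.0958 to 0.105 (1 of 14). So few pairs do not settle the question, and pairs of OPC and SSC pools were not examined. With the replicate block, 14, 18 and 19 collagen genes were called between SSCs and OPCs in the 3 genotypes and 0 in every other comparison.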

Other observations

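Col4a4 was the 1 collagen gene higher in 1013/1013 than in WT SSCs at an unadjusted p under 0.05 (log2 difference 2.15, SE 0.88, edgeR adjusted p = 0.258), with 14.4 CPM in replicate 1 and 2.29 in replicate 2, so that 1 library carried it. Col7a1, the anchoring fibril of skin, was at 0.325, 3.27 and 1.35 CPM in WT SSCs and 0 in both 1013/1013 SSC libraries, at least 29.7-fold lower, from a level near 1 CPM. Over the 9 OPC libraries Col9a3 ran from 686 to 8270 CPM, with the highest values in 1013/1013 replicates 1 and 3 (8270 and 6104) and +/1013 replicate 3 (5008).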
